A study of Mus musculus with 15 samples.

Results

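The motor pools of the tibialis anterior (TA) and the extensor digitorum longus (EDL) were compared by RNA sequencing of laser-captured motor neurons, 3 TA libraries against 3 EDL libraries, which make up 6 of the 15 libraries of the series. The libraries were taken by the muscle named in their labels. All came from wild-type mice, whose muscles were injected at postnatal day 4 with a fluorescent conjugate of cholera toxin subunit B, a tracer carried back along motor axons to the cell body. Traced cells were captured at postnatal day 6, with 30 to 40 cells pooled from 2 to 5 animals in a library, per the labels. The other 9 libraries, 3 for each of 3 further pools, received the same treatment in their own muscles, namely the gastrocnemius (GS), the peroneus longus (PL) and, as a group, the intrinsic muscles of the foot (IF). The libraries carry replicate numbers as separate biological samples, but the labels tie none to particular animals, so the p-values measure the spread between these libraries, which may be partly technical.

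A motor pool is the group of spinal motor neurons that supplies a single muscle. TA and EDL lie side by side in the anterior compartment of the leg and share the deep peroneal nerve; TA flexes the ankle dorsally, and EDL extends the toes. Their motor neurons belong to the lateral division of the lateral motor column, in which the transcription factor Foxp1 marks limb-supplying neurons and Lhx1, rather than Isl1, marks the lateral division. Pool differences in transcription factors, adhesion molecules, guidance receptors and peptides are the kind of distinction by which a motor neuron's position, axon path and inputs are known to be set.

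In the quasi-likelihood test of edgeR, a few genes were called between the pools. Sst, the precursor of the peptide somatostatin, Foxp1, the secreted antagonist Sostdc1, the heparan sulfate enzyme Ndst4, the adhesion molecule Ncam2 and the ARF exchange factor Psd3 were higher in TA. The neurotensin precursor Nts, the sulfotransferase Hs3st4, the netrin receptor family member Unc5d, the synapse organiser Cbln2, the microtubule linker Clip4, the receptor kinase Adrbk2 and the clone-named gene AW551984 were lower in TA. Of 14340 tested genes, 13 passed a Benjamini-Hochberg adjusted p of 0.05 (0.0907%), 6 of them higher in TA (0.0418%) and 7 lower (0.0488%). Without adjustment, 1241 genes (8.65%) had p under 0.05. The 3 TA libraries all lay above the 3 EDL libraries in 923 genes (6.44%) and all below in 1294 (9.02%), or 15.5% in either direction. The count of 13 depended on single libraries: it was 3 without TA 1, 8 without TA 2, 3 without EDL 1, 2 without EDL 2 and 5 without EDL 3. Leaving out libraries of the other pools, which enter the same fit, gave 6 without GS 3, 5 without any 1 of the IF libraries, 31 without PL 2 and 32 without PL 3. Other tools and settings moved it too: DESeq2 called 210 genes (61 higher and 149 lower in TA), no filter gave 74, voom 55 and the 6 TA and EDL libraries alone 2. Sst and Nts passed in every one of these fits, and they were the 2 called from the 6 libraries alone.

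**Figure D1:**
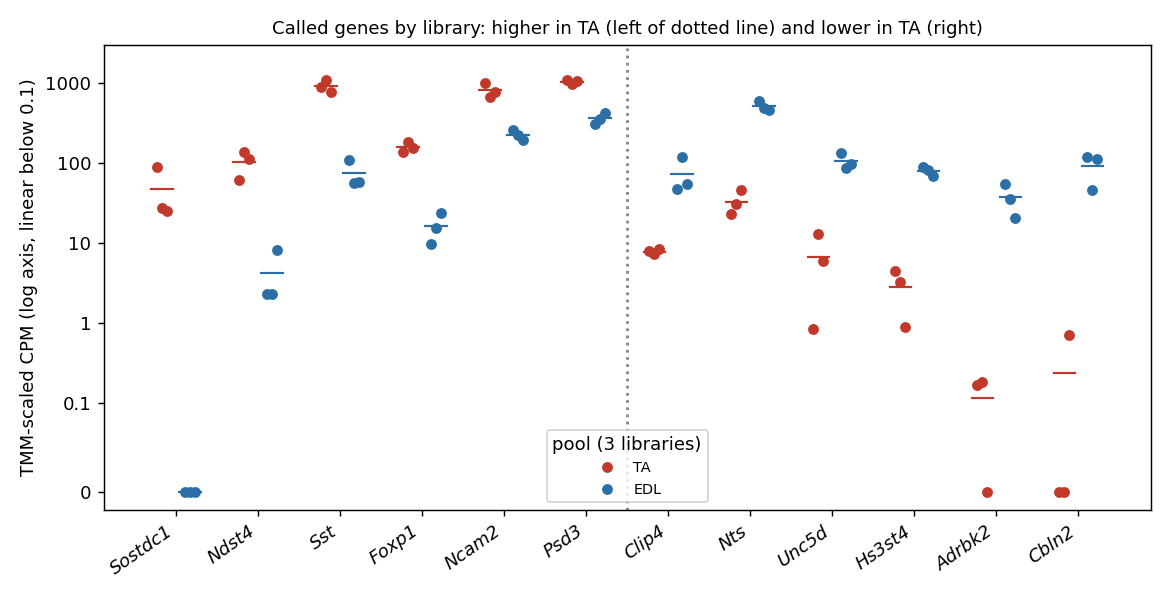
TMM-scaled counts per 1e+06 (CPM, log axis, linear below 0.1) of the 12 named called genes, with 3 TA libraries (red, left of each pair) and 3 EDL libraries (blue), each a point, and the mean as a bar. The 6 genes left of the dotted line were higher in TA and the 6 to its right lower, and no gene's TA and EDL points overlap; Sostdc1 had 0 CPM in the 3 EDL libraries.

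Because Sst and Nts had the smallest p-values, in opposite directions, the bases before their start sites are shown from RefSeq on GRCm38.p6, a later build than the mm9 of the counts. The 250 bases before the Sst start site lie on the minus strand at chr16:23890845-23891094, and those of Nts on the minus strand at chr10:102490419-102490668. Capitals mark TGACGTCA, the cAMP response element, in Sst and TGANTCA, the AP-1 motif, in Nts.
Sst: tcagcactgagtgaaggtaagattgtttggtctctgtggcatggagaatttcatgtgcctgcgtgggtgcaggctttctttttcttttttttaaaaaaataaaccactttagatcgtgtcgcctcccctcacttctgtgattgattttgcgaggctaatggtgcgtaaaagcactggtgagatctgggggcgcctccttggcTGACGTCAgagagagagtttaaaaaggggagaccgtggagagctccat
Nts: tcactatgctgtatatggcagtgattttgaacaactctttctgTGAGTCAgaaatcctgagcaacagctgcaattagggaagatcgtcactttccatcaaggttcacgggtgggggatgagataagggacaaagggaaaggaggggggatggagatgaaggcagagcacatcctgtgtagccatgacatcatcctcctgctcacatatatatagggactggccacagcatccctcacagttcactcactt
Motifs were searched on both strands of the 300 bases from 250 before to 50 after each start site. TGACGTCA began at position -48 of Sst and was held by 1.79% of 32851 promoters of that length. TGANTCA began at position -207 of Nts and was held by 7.81%. The marked matches overlapped no other motif searched. Neither window held TGTTTAC, a motif of forkhead factors such as Foxp1, which 3.65% of the promoters held. Of the 12 named called genes, 6 had a promoter in the table, and TGTTTAC was in none of them. These matches are letters in a window, and no binding was measured here.

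Among neuropeptide precursors, Sst and Nts differed between the pools in opposite directions. Sst (mm9 chr16:23889667-23890931) was at 897, 1089 and 779 CPM in TA 1, 2 and 3, against 108, 55.3 and 58.0 CPM in EDL 1, 2 and 3. The lowest TA library was thus far above the highest EDL library, and the log2 fold change was 3.64 ± 0.46 (SE; edgeR quasi-likelihood adjusted p = 0.00188). Nts (mm9 chr10:101944394-101953053) was at 23.1, 30.2 and 45.2 CPM in TA, against 599, 486 and 458 CPM in EDL, a log2 fold change of -3.97 ± 0.45 (adjusted p = 0.000703). On the deposited RPKM scale, which takes gene length into account, Sst averaged 648 ± 135 in TA and 70.8 ± 23.1 in EDL (SD, n = 3 each), and Nts averaged 11.7 ± 4.13 in TA and 254 ± 17.6 in EDL. By this measure Sst was the more abundant of the pair in TA, and Nts in EDL. Both kept their calls in all 24 alternatives, with adjusted p of at most 0.0439 for Sst and 0.00898 for Nts.

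Of 34 listed precursors, 22 were tested; Sst and Nts were the 2 that passed, and 9 members had a log2 fold change above 0 and 13 below, with a median of -1.25 against 0.00 over all tested genes. Of these 22 members, 4 had all TA libraries above all EDL libraries (18.2%, against 6.44% of all tested genes) and 6 had them all below (27.3%, against 9.02%). This and the other gene lists were chosen with earlier results of these data known. Their shares therefore describe the lists and do not test them. Calca, which encodes calcitonin gene-related peptide in motor neurons, was at 1247, 1455 and 894 CPM in TA, against 572, 451 and 642 CPM in EDL. The groups did not overlap, but Calca did not pass (log2 fold change 1.11 ± 0.34; adjusted p = 0.414). The opioid precursor Penk was at 182, 61.4 and 90.9 CPM in TA, against 43.2, 10.6 and 16.4 CPM in EDL (adjusted p = 0.520). The urotensin precursor Uts2 ran the other way, at 6.78, 7.04 and 3.17 CPM in TA, against 48.1, 58.5 and 20.4 CPM in EDL (adjusted p = 0.473). Pnoc, the nociceptin precursor, was at 0, 0.361 and 19.5 CPM in TA, against 51.0, 77.1 and 38.3 CPM in EDL (adjusted p = 0.496). Penk, Uts2 and Pnoc were picked after their values were seen, and none of the 3 passed.

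The receptors for peptides gave no call. Of 49 listed receptors 37 were tested, 21 with a log2 fold change above 0 and 14 below (median 0.47). Trhr, the receptor of thyrotropin-releasing hormone, was at 111, 154 and 336 CPM in TA, against 33.4, 27.4 and 56.3 CPM in EDL (log2 fold change 2.36 ± 0.58; adjusted p = 0.188). Rxfp1, a relaxin receptor, was at 20.0, 3.07 and 31.3 CPM in TA and had no read in EDL, which makes it at least 155-fold higher in TA against 3 counts over the EDL group (adjusted p = 0.219). The TA libraries of both receptors lay above the EDL libraries, while TA 2 held little Rxfp1.

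Foxp1 was the called member among motor neuron identity factors. Foxp1 (mm9 chr6:98875332-99216527), a forkhead factor that directs the lateral motor column programme, was at 136, 180 and 151 CPM in TA, against 9.73, 15.4 and 23.6 CPM in EDL. Every TA library was several times above every EDL library (log2 fold change 3.26 ± 0.54; adjusted p = 0.0216). The call was lost without any 1 of TA 1, TA 2, the 3 EDL and the 3 IF libraries, with an adjusted p of up to 0.134 over the alternatives. Foxp1 also lost its call in the fit of the 6 TA and EDL libraries alone (0.0645). In the other pools Foxp1 averaged 122 ± 76.9 CPM in PL, 160 ± 53.1 in GS and 199 ± 19.3 in IF, so that EDL, at 16.2 ± 6.96, was the pool with the lowest mean. Of 45 listed factors 38 were tested, with 21 above 0 and 17 below (median 0.29); 5 had all TA libraries above EDL (13.2%, against 6.44% of all tested genes) and 8 all below (21.1%, against 9.02%). Nfib, a nuclear factor I gene, was next by p, at 594, 721 and 557 CPM in TA, against 189, 176 and 222 CPM in EDL (adjusted p = 0.199). Fign, a microtubule-severing enzyme gene held in this list, was at 0, 1.99 and 27.4 CPM in TA, against 145, 131 and 224 CPM in EDL (adjusted p = 0.219). Nfib and Fign were picked after their values were seen.

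Isl1, Lhx1 and Mnx1, other factors of motor neuron and column identity, did not pass. Isl1, of the medial division, had no read in TA and 5 reads in EDL, all in EDL 2. Lhx1 was at 5.43, 9.57 and 0 CPM in TA, against 2.20, 21.8 and 15.1 CPM in EDL, and overlapped (adjusted p = 0.927). Mnx1, a general motor neuron factor, was at 8.65, 31.2 and 1.76 CPM in TA, against 11.2, 6.0 and 9.91 CPM in EDL (adjusted p = 0.964), and its direction reversed with voom and without TA 2. Isl1 had no read in 5 of the 6 libraries and Lhx1 none in TA 3. Etv4, a pool factor induced by muscle-derived signals, was at 0, 0.181 and 2.29 CPM in TA, against 8.92, 7.13 and 8.40 CPM in EDL, apart but not called (adjusted p = 0.530). Aldh1a2, which makes retinoic acid in limb-level motor neurons, was at 622, 479 and 379 CPM in TA and at 371, 382 and 341 CPM in EDL (adjusted p = 0.875). Chat, which makes acetylcholine, was at 93.1, 150 and 222 CPM in TA and at 66.2, 153 and 123 CPM in EDL (adjusted p = 0.878).

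Hox genes set rostrocaudal and pool position. None of 21 tested members passed, with 11 above 0 and 10 below (median 0.08, and -0.05 with upper quartile scaling). Hoxc8 was at 76.5, 54.4 and 67.2 CPM in TA, against 8.69, 11.9 and 19.1 CPM in EDL (log2 fold change 2.32 ± 0.84; adjusted p = 0.461). Hoxc10 was at 475, 338 and 295 CPM in TA, against 231, 186 and 143 CPM in EDL (adjusted p = 0.598). Hoxa11 leaned the other way, at 5.77, 0 and 0.176 CPM in TA, against 9.85, 40.6 and 33.7 CPM in EDL (adjusted p = 0.457). In these 3 genes the pools did not overlap. Of the 21 tested members, 3 had all TA libraries above EDL (14.3%, against 6.44% of all tested genes). All TA libraries lay below EDL in 2 members (9.52%, against 9.02%). Hoxd10 overlapped, at 58.3, 32.5 and 12.0 CPM in TA, against 16.1, 22.2 and 59.2 CPM in EDL (adjusted p = 1.00).

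Sostdc1 was read in TA alone of the pair. Sostdc1 (mm9 chr12:37040756-37045040), a secreted antagonist of bone morphogenetic proteins that also acts on Wnt signalling, was at 89.9, 27.6 and 25.1 CPM in TA and had no read in any EDL library. With 826 reads in TA, it was at least 409-fold higher there against 3 counts over the EDL group (edgeR adjusted p = 0.0293; counting error only for the bound, since PCR copies are not independent molecules). TA 1 was more than its fellows and held 63.0% of the TA sum. Leaving out TA 1, any EDL library, GS 3 or any IF library ended the call, with an adjusted p of up to 0.134 over the alternatives. The fit of the 6 TA and EDL libraries alone did not call it either (0.0645). Sostdc1 averaged 0.325 ± 0.563 CPM in PL, 12.4 ± 2.40 in GS and 4.55 ± 2.89 in IF. Sostdc1 was the 1 call among 47 tested ligands, receptors and antagonists of the BMP, TGF-beta and Wnt families, in which 26 members were above 0 and 21 below (median 0.21). In that list 3 members had all TA libraries above EDL (6.38%, against 6.44% of all tested genes) and 9 all below (19.1%, against 9.02%). Nog, the antagonist noggin, had no read in TA and was at 0.116, 9.73 and 16.8 CPM in EDL (adjusted p = 0.414), a gene picked after its values were seen.

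**Figure D2:**
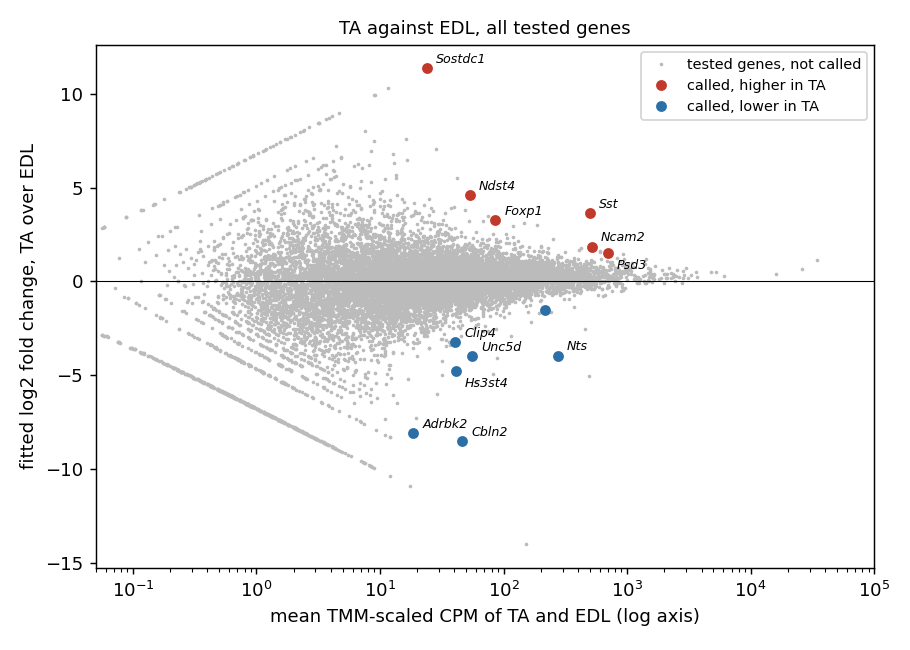
Fitted log2 fold change of TA over EDL against the mean TMM-scaled CPM of both pools (log axis) for the 14340 tested genes, with the 6 genes called higher in TA in red and the 7 called lower in blue. The sizes of genes with no read in a pool, on the slanting lines, depend on the fit's prior count; the called genes lie at mean levels above 10 CPM.

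Enzymes that sulfate heparan sulfate chains, which bind growth factors and guidance cues at the cell surface, were called in opposite directions. Ndst4 (mm9 chr3:125107012-125427905), an N-deacetylase and N-sulfotransferase that starts chain modification, was at 60.2, 137 and 111 CPM in TA, against 2.32, 2.26 and 8.03 CPM in EDL. All TA libraries stood well above EDL (log2 fold change 4.61 ± 0.69; adjusted p = 0.0135), and Ndst4 lost its call without EDL 1, without EDL 2 and in the fit of the 6 libraries alone (adjusted p of up to 0.111). Hs3st4 (mm9 chr7:131126383-131542504), a 3-O-sulfotransferase that adds a late sulfate, was at 4.41, 3.25 and 0.879 CPM in TA, against 87.8, 82.3 and 68.1 CPM in EDL. It was low in every TA library (log2 fold change -4.79 ± 0.75; adjusted p = 0.0171), and its call was lost without any 1 of the TA libraries, EDL 1 or EDL 2 (adjusted p of up to 0.0754), with voom (0.0944) and in the fit of the 6 libraries alone (0.0668). Across the other pools Ndst4 averaged 82.5 ± 35.6 CPM in PL, 60.4 ± 3.67 in GS and 19.1 ± 2.33 in IF. Hs3st4 averaged 147 ± 111 CPM in PL, 97.0 ± 43.6 in GS and 109 ± 4.35 in IF. EDL was therefore the pool with the lowest Ndst4 mean and TA the pool with the lowest Hs3st4 mean.

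Of 33 tested heparan sulfate genes, Ndst4 and Hs3st4 were the calls; 11 members were above 0 and 22 below, with a median of -0.42, or -0.23 with the members that had no read in a pool set at their bound. The chain polymerase gene Ext2 was at 45.5, 26.2 and 14.8 CPM in TA, against 20.6, 536 and 2281 CPM in EDL. EDL 1 lay among the TA libraries while EDL 3 held 80.4% of the EDL sum, and Ext2 did not pass (adjusted p = 0.0723). Extl3, a related glycosyltransferase picked after its values were seen, was at 117, 172 and 118 CPM in TA, against 86.4, 89.5 and 2165 CPM in EDL (adjusted p = 0.496). Its high EDL mean was again EDL 3, with 92.5% of the sum.

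Axon guidance and adhesion genes gave a call in each direction. Unc5d (mm9 chr8:29757189-30329811), a receptor of the netrin receptor family, was at 0.848, 13 and 5.98 CPM in TA, against 133, 85.8 and 96.2 CPM in EDL (log2 fold change -3.99 ± 0.70; adjusted p = 0.0310). The call was lost without TA 1, TA 3, GS 3 or any 1 of the EDL and IF libraries (adjusted p of up to 0.155), with voom (0.0649) and in the fit of the 6 libraries alone (0.158). Unc5d averaged 189 ± 95.0 CPM in PL, 46.6 ± 14.1 in GS and 211 ± 34.4 in IF, and TA, at 6.61 ± 6.10, was the lowest pool. Of 20 tested members of the netrin, Slit and Robo families, 9 were above 0 and 11 below (median -0.26), and 7 had all TA libraries below EDL (35%, against 9.02% of all tested genes) and 3 all above (15%, against 6.44%). In semaphorins, plexins and neuropilins none of 29 passed (median 0.00), and in Eph receptors and ephrins none of 17 (median 0.02). Sema6a, a transmembrane semaphorin, was at 436, 584 and 219 CPM in TA, against 94.3, 95.5 and 65.1 CPM in EDL (adjusted p = 0.403). Sema3b, a secreted semaphorin, had no read in TA and 17.5, 8.37 and 23.5 CPM in EDL (at least 92.4-fold lower in TA; adjusted p = 0.384). Ephb6, an ephrin receptor without kinase activity, was at 8.99, 5.78 and 4.22 CPM in TA, against 57.6, 32.0 and 29.1 CPM in EDL (adjusted p = 0.510).

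Ncam2 (mm9 chr16:81200942-81624531), an immunoglobulin adhesion molecule of axons, was at 996, 660 and 777 CPM in TA, against 254, 222 and 195 CPM in EDL. The pools were far apart, with a log2 fold change of 1.86 ± 0.30 (adjusted p = 0.0178). Its call was lost without TA 1 or any 1 of the EDL libraries (adjusted p of up to 0.118) and in the fit of the 6 libraries alone (0.0645). Ncam2 averaged 650 ± 84.2 CPM in PL, 153 ± 42.0 in GS and 193 ± 9.02 in IF, so TA and PL held the high levels and EDL lay with GS and IF. Among 49 tested immunoglobulin and leucine-rich repeat adhesion molecules, Ncam2 was the only call, with 33 above 0 and 16 below (median 0.43). In that list 13 had all TA libraries above EDL (26.5%, against 6.44% of all tested genes) and 2 all below (4.08%, against 9.02%). Since the list was chosen with earlier results of these data known, these shares do not test it. Upper quartile scaling made these 12 and 3, while over all tested genes 923 above and 1294 below became 739 and 1526. Vstm2a, an immunoglobulin-domain protein, was at 590, 516 and 843 CPM in TA, against 272, 174 and 129 CPM in EDL (adjusted p = 0.106). Negr1, which promotes neurite growth, ran the other way at 81.2, 73.0 and 121 CPM in TA, against 419, 213 and 264 CPM in EDL (adjusted p = 0.0693), and was picked after its values were seen. Alcam, a further immunoglobulin adhesion molecule, overlapped, at 682, 730 and 694 CPM in TA, against 975, 621 and 398 CPM in EDL (adjusted p = 0.994). None of 26 tested cadherins and protocadherins passed; Cdh13 was at 3.22, 105 and 72.5 CPM in TA, against 301, 213 and 311 CPM in EDL (adjusted p = 0.438).

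**Figure D3:**
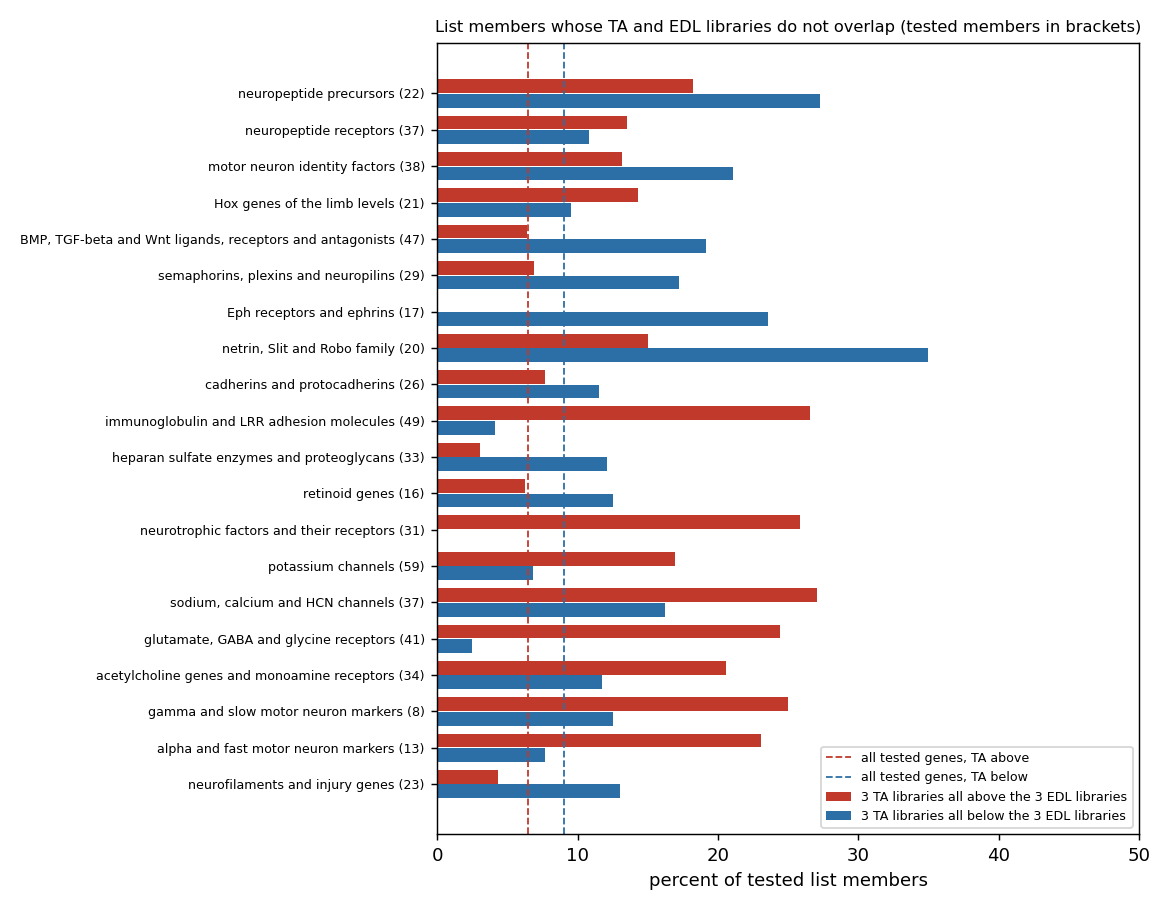
Percent of the tested members of each neuronal gene list (number tested in brackets) whose 3 TA libraries all lay above (red) or all below (blue) the 3 EDL libraries, with dashed lines at the 6.44% and 9.02% of all tested genes. Ig and leucine-rich repeat adhesion molecules had 26.5% above and 4.08% below. Netrin, Slit and Robo genes had 15% above and 35% below. The lists were chosen with earlier results of these data known, so the shares do not test them.

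Cbln2, Psd3, Clip4, Adrbk2 and AW551984 made up the other calls. Cbln2 (mm9 chr18:86880502-86887676), a secreted cerebellin that joins presynaptic neurexins to postsynaptic receptors, was at 0, 0 and 0.703 CPM in TA, against 118, 46.3 and 113 CPM in EDL. TA held 4 reads in all, which leaves the size of the log2 fold change imprecise (-8.51 ± 1.51; adjusted p = 0.0310). Cbln2 averaged 29.7 ± 34.0 CPM in PL, 4.29 ± 2.28 in GS and 15.8 ± 2.05 in IF, so EDL, at 92.3 ± 39.9, was the pool with the most Cbln2. Psd3 (mm9 chr8:70212981-70586186), an exchange factor of ARF small GTPases, was at 1086, 955 and 1049 CPM in TA, against 309, 352 and 424 CPM in EDL (log2 fold change 1.51 ± 0.27; adjusted p = 0.0362). Clip4 (mm9 chr17:72119042-72207692), a microtubule linker family member, was at 7.80, 7.22 and 8.27 CPM in TA, against 46.7, 119 and 54.8 CPM in EDL (log2 fold change -3.24 ± 0.56; adjusted p = 0.0309). TA was even across libraries for both genes. Adrbk2 (mm9 chr5:113339498-113444812), which phosphorylates active G protein-coupled receptors, was at 0.170, 0.181 and 0 CPM in TA, against 54.9, 35.8 and 20.7 CPM in EDL. With 2 reads in TA and 955 in EDL, the count ratio of EDL over TA was 321 (95% exact interval 88.7 to 2657, counting error only; edgeR adjusted p = 0.0453). AW551984, for which no role is given here and which was picked after its values were seen, was at 113, 86.7 and 132 CPM in TA, against 314, 345 and 315 CPM in EDL (log2 fold change -1.55 ± 0.29; adjusted p = 0.0393). Each of these 5 genes lost its call without any 1 of the EDL libraries, TA 1, TA 2, GS 3 or any 1 of the IF libraries, and Psd3, Clip4, Adrbk2 and AW551984 also without TA 3, with adjusted p over the alternatives of up to 0.159 for Cbln2, 0.250 for Psd3, 0.185 for Clip4, 0.227 for Adrbk2 and 0.185 for AW551984. Psd3 and Adrbk2 were lost without GS 1 or GS 2 as well. None of the 5 passed in the fit of the 6 TA and EDL libraries alone. Clip4 was also lost with voom (adjusted p = 0.127) and Psd3 with upper quartile scaling (0.0576).

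**Figure D4:**
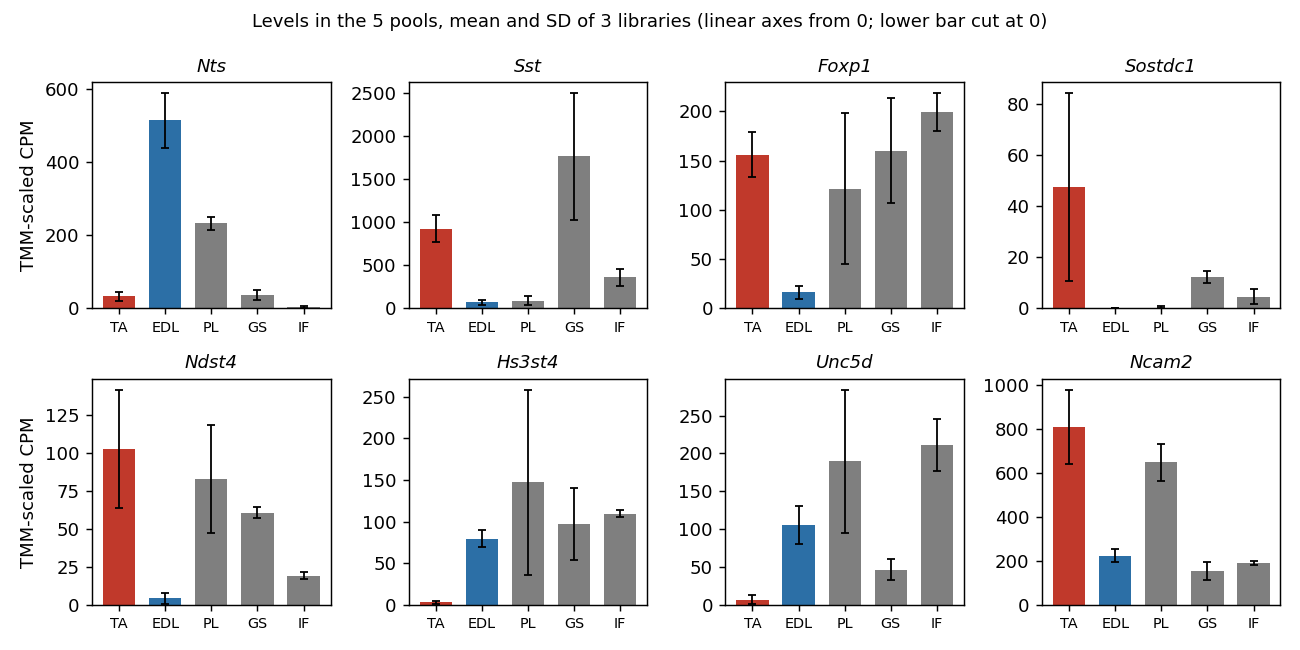
Mean TMM-scaled CPM (linear axes from 0) with the SD over 3 libraries in TA, EDL, PL, GS and IF for 8 called genes. TA at 32.8 CPM and EDL at 514 CPM of Nts, and TA at 921 CPM and EDL at 73.9 CPM of Sst, lie at different places in the range of all pools, and EDL had the lowest mean of Foxp1 (16.2 CPM) and Ndst4 (4.20 CPM), and TA that of Hs3st4 (2.85 CPM) and Unc5d (6.61 CPM).

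No ion channel or transmitter receptor was called. Potassium channels had 59 tested members, of which 10 had all TA libraries above EDL (16.9%, against 6.44% of all tested genes). All TA libraries lay below EDL in 4 members (6.78%, against 9.02%), and the median log2 fold change was 0.23. Upper quartile scaling made these counts 9 and 5. Kcng1, a modulatory potassium channel subunit, was at 35.1, 5.96 and 127 CPM in TA, against 0.463, 0 and 0.753 CPM in EDL; TA 3 held 75.6% of the TA sum (adjusted p = 0.109). Kcnc1, a channel of fast-spiking neurons, was at 247, 202 and 101 CPM in TA, against 40.2, 40.5 and 84.0 CPM in EDL (adjusted p = 0.388). Sodium, calcium and HCN channels had 37 tested members, 10 all above (27.0%, against 6.44%) and 6 all below (16.2%, against 9.02%), with a median of 0.27. Upper quartile scaling made these counts 8 and 7. Scn9a, a sodium channel, was at 52.6, 37.7 and 38 CPM in TA, against 167, 163 and 149 CPM in EDL, with narrow spread in both pools (log2 fold change -1.90 ± 0.45; adjusted p = 0.155). Cacng2, an auxiliary subunit of AMPA receptors, was at 685, 835 and 1053 CPM in TA, against 352, 423 and 345 CPM in EDL (adjusted p = 0.403).

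Glutamate, GABA and glycine receptors had 41 tested members, with a median of 0.38. Of these, 10 were all above (24.4%, against 6.44% of all tested genes) and 1 all below (2.44%, against 9.02%). Upper quartile scaling made these counts 7 and 3. Gria4, an AMPA receptor subunit, was at 539, 378 and 692 CPM in TA, against 286, 318 and 314 CPM in EDL (adjusted p = 0.435). Acetylcholine genes and monoamine receptors had 34 tested members, 7 all above (20.6%, against 6.44%) and 4 all below (11.8%, against 9.02%). Upper quartile scaling made these counts 5 and 4. The list's median of 0.18 became -0.04 with members lacking reads in a pool set at their bound. Chrm2, a muscarinic receptor of motor neurons, was at 519, 339 and 541 CPM in TA, against 127, 148 and 205 CPM in EDL (log2 fold change 1.55 ± 0.37; adjusted p = 0.170). Slc5a7, the choline transporter, was at 1336, 1173 and 1817 CPM in TA, against 723, 774 and 716 CPM in EDL (adjusted p = 0.403). Of neurotrophic factors and their receptors 31 were tested, with a median of 0.29, and none passed. In this list 8 were all above (25.8%, against 6.44%) and 0 all below (against 9.02%). An unadjusted p under 0.05 was found in 6 (19.4%, against 8.65% of all tested genes). Fgf13, an intracellular fibroblast growth factor that binds sodium channels, was at 294, 308 and 453 CPM in TA, against 84.5, 145 and 79.9 CPM in EDL (adjusted p = 0.0693). Igf1 was at 44.8, 22.4 and 92.9 CPM in TA, against 2.66, 0.679 and 15.6 CPM in EDL (adjusted p = 0.448). Upper quartile scaling put 1 neurotrophic member all below.

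No marker of a motor neuron type was called. None of 8 tested gamma and slow markers and none of 13 alpha and fast markers passed, with medians of 0.65 and 0.36. Esrrg, a gamma marker, was at 303, 316 and 670 CPM in TA, against 157, 241 and 219 CPM in EDL (adjusted p = 0.435). None of 16 tested retinoid genes (median 0.32) and none of 23 neurofilament and injury genes (median -0.04) passed. Parm1 was fixed for naming with earlier results of these data known. It was at 1203, 719 and 806 CPM in TA, against 314, 261 and 297 CPM in EDL, apart but not called (log2 fold change 1.64 ± 0.34, edgeR adjusted p = 0.0693).

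In depth, the TA libraries held 5775369 to 7042076 counts and the EDL libraries 7085025 to 8411260, and 9.76% to 13.7% of tested genes were at 0 in TA libraries against 4.0% to 8.59% in EDL libraries. Rank correlations of counts were 0.775 to 0.804 between TA libraries, 0.845 to 0.890 between EDL libraries and 0.773 to 0.839 between a TA and an EDL library, so the values between the pools covered the whole range of those within TA. PL 2 and PL 3, which enter the estimate of the spread, had 25.7% and 29.2% of tested genes at 0; without both, 70 genes were called. The 12 motor neuron markers, of which Nefm made up most, summed to 30993 to 79289 CPM in TA and 22886 to 37607 CPM in EDL. None of the 12 passed, Isl1 was the member with no read in TA, and all had a read in EDL.

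Markers of other cells moved with the pools in part. Oligodendrocyte markers summed to 725 to 1643 CPM in TA and 515 to 813 CPM in EDL; 15 of 16 tested members were above 0 (median 1.14), and none passed. Mog, a myelin protein of oligodendrocytes, was at 0, 11.4 and 42.6 CPM in TA and had no read in EDL, and Opalin had no read in either pool. TA 3 was the highest oligodendrocyte library. Fibroblast and meninges markers summed to 90.7 to 132 CPM in TA and 135 to 274 CPM in EDL, with no call among 7 tested members. Of these 7 members, 4 were above 0 and 3 below (median 0.33). Dcn, the matrix proteoglycan decorin, was at 0.170, 0 and 8.44 CPM in TA, against 70.9, 195 and 86.7 CPM in EDL (adjusted p = 0.403). The lower TA sums rested on Dcn, since the list's EDL sums were 160, 274 and 135 CPM in EDL 1, 2 and 3. Foxd1 and Slc6a13 had no read in either pool. Ly6a, an endothelial surface gene of a family whose close copies can share reads, was at 1.19, 1.08 and 12.8 CPM in TA, against 69.2, 297 and 107 CPM in EDL (log2 fold change -4.96 ± 0.96; adjusted p = 0.0638), but the summed endothelial and mural list overlapped, at 296 to 536 CPM in TA and 153 to 480 CPM in EDL. Astrocyte markers summed to 2727 to 3987 CPM in TA and 2644 to 3004 CPM in EDL, microglial markers to 52.4 to 145 CPM in TA and 39.4 to 79.5 CPM in EDL, and interneuron markers to 361 to 391 CPM in TA and 323 to 350 CPM in EDL, with no call in any. Schwann cell markers summed to 390 to 787 CPM in TA and 352 to 584 CPM in EDL, Renshaw and cerebrospinal fluid contacting cell markers to 24.7 to 59.1 CPM in TA and 16.4 to 30.5 CPM in EDL, and muscle and blood markers to 2.46 to 37.4 CPM in TA and 9.27 to 15.7 CPM in EDL, again with no call. The part of other cells in the called differences was not tested, and in bulk captures fewer cells of a type and less RNA per cell cannot be told apart.

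The authors' deposited tables for this pair list 20 genes higher in TA and 24 higher in EDL. The quasi-likelihood test called 4 of the 20 (20.0%) and 5 of the 24 (20.8%), against 0.0907% of all tested genes. These are 9 of the 13 calls (69.2%). The deposited lists and the calls rest on the same libraries, so this overlap is no independent support for either. Ncam2, Psd3, Clip4 and AW551984 were called here and are not in those lists. The smallest p of the authors' deposited table was that of Smpd3, a sphingomyelinase, at 5.49e-29. Smpd3 had no read in TA and was at 12.4, 899 and 0.753 CPM in EDL, so that EDL 2 held 98.6% of the EDL sum, and its adjusted p here was 0.0693. Ext2 was next in the authors' deposited table, with p = 1.51e-15. Of the 44 listed genes, 23 had over 60% of the higher pool's sum in a single library, and 10 overlapped between the pools. The pools did not overlap in 34 of the 44, and in 15.5% of all tested genes. Heatr7b1, listed by the authors' deposited table with p = 7.59e-08, was at 124, 0.181 and 0.528 CPM in TA, against 0, 0.339 and 0 CPM in EDL, and did not pass the filter on low counts.

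**Figure D5:**
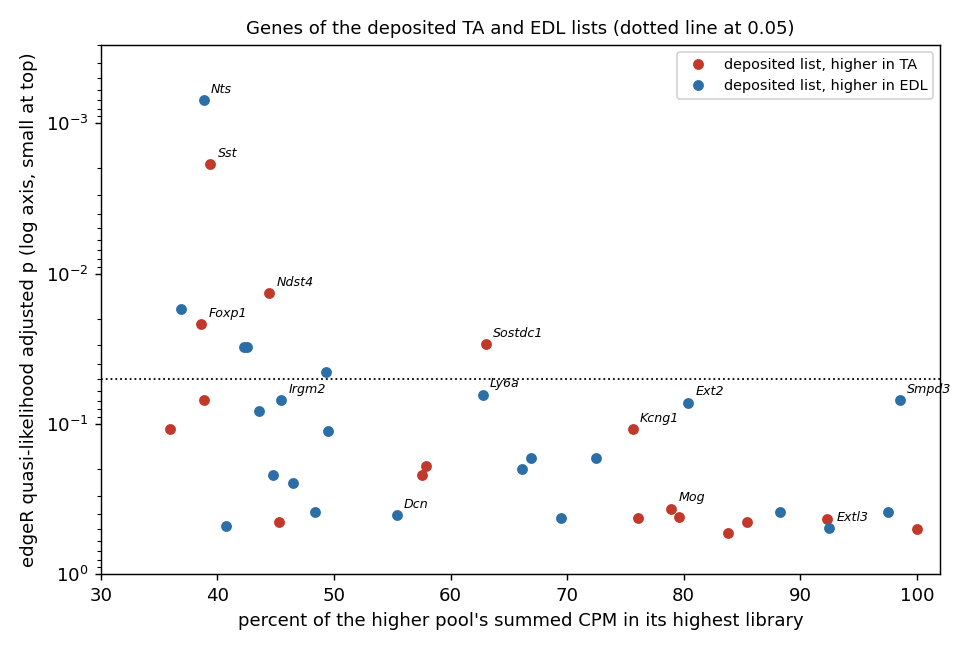
Each point is 1 of the 40 tested genes of the authors' deposited TA list (red) and EDL list (blue), placed by the percent of the higher pool's summed CPM that its highest library held and by its edgeR adjusted p (log axis, small values at the top). The 9 genes above the dotted line at 0.05 hold at most 63.0% in a single library, the value of Sostdc1, while Smpd3 holds 98.6%.

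Genes read in a single pool of the pair were mostly EDL genes. Genes were counted with no read in a pool and at least 10 in each library of the other. By this rule 4 genes were read in TA alone and 34 in EDL alone. All tested genes leaned the same way: of 14340, 475 had no read in TA and 133 had no read in EDL. The tilt was therefore not particular to the genes named here. The TA libraries were shallower, and the part of depth in these counts was not tested. Besides Sostdc1, the TA genes were Rxfp1, the small GTPase Arl4d and BC022960, at least 155-fold, 79.3-fold and 55.0-fold higher in TA. Of the EDL genes, Irgm2, an interferon-inducible GTPase whose family members can share reads, had no read in TA and was at 29.3, 27.6 and 47.4 CPM in EDL. It was even across EDL libraries and at least 196-fold lower in TA (adjusted p = 0.0693). Prrxl1, a homeodomain factor of sensory pathways, was at 25.6, 10.6 and 35.5 CPM in EDL with no read in TA (at least 134-fold lower; adjusted p = 0.111). Adprhl2, ORF63, AC160469.1, Klc3 and Mall, with no read in TA either, were at least 81.2-fold, 105-fold, 97.6-fold, 49.8-fold and 57.0-fold lower in TA, and none passed.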

How the data were processed

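Motor neurons of 5 pools were sequenced, 3 libraries each, and TA was compared with EDL. Per the labels' protocols, cDNA was made with the Ovation system and tagged with Nextera, which keeps no strand, so reads of overlapping and antisense genes cannot be told apart. Per the submitters' processing notes, reads were aligned with Bowtie 0.12.9 to mm9 and compared with DESeq, for which no version was named. The authors deposited raw counts per gene for 36814 genes, and the gene counter is not given in the sources used here. Because 16 cells in 4 genes were below 0, those 4 genes were left out. The deposited RPKM values were computed by the authors per gene length and library, and served as levels per length. The deposited tables of the pair hold the authors' ratio (a fold of TA over EDL), p-values and signal columns (mean normalized counts).

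Genes were filtered with filterByExpr (14340 tested; 16357 had no read anywhere) and fitted with edgeR 4.0.16 in R 4.3.3: TMM scaling, 1 coefficient per pool over all 15 libraries, quasi-likelihood F-test of TA minus EDL, Benjamini-Hochberg adjustment, threshold 0.05. Levels are CPM on TMM-scaled library sizes; errors are SE of the log2 fold change or SD of 3 libraries. For a pool with no read a fold is a bound against 3 counts, for 1 to 3 reads a count ratio with a 95% interval. Alternatives used limma 3.58.1 (voom) and DESeq2 1.42.0. The pair, the gene lists and the fixed set of genes were chosen with earlier results of these data known. Genes named were called genes whose libraries did not overlap (clone names not taken here, apart from AW551984), called members of each list or else its 2 members of smallest p, a fixed set, the 5 smallest p of each deposited list, and genes without a read in 1 pool; others are said to be picked after their values were seen. List symbols with several gene rows (Ntng1, Flrt3, Pcdh15 and Kcnh8) were not used.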

Additional observations from a re-analysis of the deposited data

How the results depend on the processing

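Against 13 calls (6 higher, 7 lower in TA), RLE scaling gave 13, upper quartile scaling 14 and a filter of 10 reads in 3 of the 6 libraries 13. No filter gave 74 (34 higher, 40 lower), DESeq2 210 (61 and 149), voom 55 (21 and 34), the 6 TA and EDL libraries alone 2 (1 and 1), and leaving out both PL 2 and PL 3 gave 70 (38 and 32); the cause was not tested. Leaving out single libraries gave 2 to 32 calls, 1 to 17 of them higher and 1 to 16 lower. All 13 genes stayed called with RLE, no filter, the 10-read filter and DESeq2, 12 with upper quartile scaling and 10 with voom, which moved the median log2 of all genes by -0.10 and -0.15. The replicate block gave 4 calls (2 and 2: Sst, Nts, Ndst4 and Hs3st4); same-numbered TA and EDL libraries correlated at 0.031, -0.025 and 0.016 in their deviations, and not every library correlated best with its own number. Over 83 named genes and 24 alternatives, 1749 values kept direction and side of the threshold, 101 lost and 96 gained a call, and 15 reversed, all in genes that were not called. With single libraries left out, Ermn ran from -2.43 (without TA 3) to 6.60, Pmp22 from -0.17 (without TA 3) to 0.50, Itgam from -1.18 (without TA 2) to 5.65, Gad1 from -1.53 to 0.028 (without EDL 3), Sox10 from -0.070 (without TA 1) to 0.96, Mnx1 from -0.82 (without TA 2) to 1.14, Calb1 from -3.46 to 1.67 (without EDL 2; 0.047 without TA 3), Alcam from -0.20 (without EDL 3) to 0.45, and Hoxd10 from -0.55 (without TA 1; -0.26 without EDL 1, -0.15 without EDL 2) to 0.82. Mnx1 was at -0.15 with voom, and upper quartile scaling put Alcam at -0.0082 and Hoxd10 at -0.050. These are log2 fold changes, uncertain in size where a pool has few reads. Low counts limit genes under about 10 CPM, and 30 to 40 cells a library limit every level.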
